A study of Mus musculus with 6 samples.

Results

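The collagen genes were the 43 genes, of 19378 in all, whose symbol in the deposited tables is COL, a number, A and a number. They were taken by symbol and by no measured value, so every level given here is a description of the whole set. By the structure of the proteins they encode, 11 belong to the fibrillar collagens, 9 to the network-forming collagens, 8 to the fibril-associated collagens (FACIT), 6 to the beaded-filament collagen VI and 9 to the remaining types, among them the anchoring-fibril collagen Col7a1, the transmembrane collagens and the endostatin-bearing Col18a1. Not every section's table held every gene. The control paw and the embryo H3K27me3 section held all 43, the embryo H3K27ac and H3K4me3 sections 42 each, the brain 29 and the arthritic paw 28, and 24 were held by all 6 sections.

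The study mapped 3 histone marks by position. Mouse tissue sections were laid on DNA arrays whose spots carry position barcodes, an antibody against the mark was bound, and a protein A-Tn5 transposase cut out the marked chromatin so that it could be captured and sequenced spot by spot. Both adult paw sections carried H3K27ac and came from fixed, decalcified, paraffin-embedded tissue cut at 4 µm around the talus bone. The arthritic paw was from a mouse at 42 days of collagen-induced arthritis (CIA), and the control paw is labelled as control at 42 days. The 3 wild-type whole-embryo sections of stage E11.5 (16 µm cryosections) carried H3K27ac, H3K4me3 and H3K27me3, and the wild-type adult brain section (20 µm cryosection) carried H3K4me3. The labels give no strain, sex or number of animals. With 1 section per group there was no replicate and no test between groups, so every interval below is a 95% interval that covers counting error only.

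Collagen chains wind around each other into a rigid helix that is secreted and assembled outside the cell. Fibrillar collagens give bone, tendon, skin and cartilage their tensile strength, network collagens form the sheets of basement membranes, and FACIT collagens bind to the surface of fibrils. Type II collagen, encoded by Col2a1, is the main fibril of cartilage and the protein used to immunise mice in CIA. H3K27ac marks active promoters and enhancers, H3K4me3 marks active promoters, and H3K27me3 is laid down by Polycomb repressive complexes at genes that are held silent.

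The deposited values were quantile-normalised signals, from which whole reads per gene and spot were recovered through the ties between equal counts. The recovered totals were 5344438 reads over 943 spots in the arthritic paw, 5981684 over 554 spots in the control paw, 2036521 over 1200 spots in the brain, and 548923, 403483 and 749650 over 251, 248 and 254 spots in the embryo H3K27ac, H3K4me3 and H3K27me3 sections. The embryo sections were shallow, with 12, 7 and 14 reads for the median gene, against 274 in the arthritic paw, 142 in the control paw and 120 in the brain. Every section had reads on markers of its labelled tissue, but also on those of the other tissues listed. The arthritic paw held 2 of 5 cartilage markers and the control paw all 5. Counting the markers held by both paws, per 100000 reads on shared genes, 13 of 17 marker lists lay within 2-fold between the paws. Cartilage markers had 9.34 in the arthritic and 16.4 in the control paw, epidermal markers 83.8 and 42.5, and T-cell markers 33.9 and 18.6. Past 2-fold lower in the arthritic paw were markers of B cells (10.4 against 67.4), endothelium (8.16 against 28.0) and astrocytes (9.41 against 22.1), and past 2-fold higher those of the embryonic neural tube (144 against 37.2). Few genes stood behind each sum, with 2 for cartilage, T cells, B cells and astrocytes, 3 for endothelium and neural tube, and 4 for epidermis. A single gene could therefore carry a difference. The part of these marker differences in the paw ratios below was not tested. No marker held by a section was without reads there, but nearly every listed gene had reads, so presence does not identify a tissue. A spot pools many cells, so a change in the share of a cell type and a change in signal per cell cannot be told apart.

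A first group of promoters is printed because the data bear on them directly. Col4a1 and Col4a2, which encode the chains of the ubiquitous basement-membrane collagen IV, lie head to head on chromosome 8. Their annotated starts are 21 bases apart and their promoter windows share 78 bases. Col8a2, a network collagen of the corneal and vascular matrix, was among the top 10% of the genes listed in each section. Col3a1, a fibrillar collagen of skin and vessel walls, was below the median gene in every section, and so was Col5a1, a chain of the collagen that nucleates fibrils, in each of the 5 sections that held it. All sequences are RefSeq windows on GRCm38.p6, from 250 bases before to 50 bases after the annotated start, 5′ to 3′ on the gene's own strand. They were matched by symbol, and 34 of the 43 genes had at least 1 window. The windows are Col4a1 at chr8:11312777-11313076 (minus strand), Col4a2 at chr8:11312555-11312854 (plus), Col8a2 at chr4:126286544-126286843 (plus), Col3a1 at chr1:45311288-45311587 (plus) and Col5a1 at chr2:27886175-27886474 (plus). Capitals mark the 78 shared bases in Col4a1 and Col4a2, and CpG dinucleotides (the letters CG, the same on both strands) in the other promoters.
Col4a1: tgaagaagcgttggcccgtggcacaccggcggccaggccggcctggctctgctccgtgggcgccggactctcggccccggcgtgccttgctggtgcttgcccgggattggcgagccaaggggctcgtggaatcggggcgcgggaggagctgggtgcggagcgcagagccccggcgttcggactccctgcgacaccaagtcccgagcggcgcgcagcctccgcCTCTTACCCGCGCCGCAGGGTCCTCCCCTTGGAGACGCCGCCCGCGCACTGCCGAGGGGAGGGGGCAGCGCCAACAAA
Col4a2: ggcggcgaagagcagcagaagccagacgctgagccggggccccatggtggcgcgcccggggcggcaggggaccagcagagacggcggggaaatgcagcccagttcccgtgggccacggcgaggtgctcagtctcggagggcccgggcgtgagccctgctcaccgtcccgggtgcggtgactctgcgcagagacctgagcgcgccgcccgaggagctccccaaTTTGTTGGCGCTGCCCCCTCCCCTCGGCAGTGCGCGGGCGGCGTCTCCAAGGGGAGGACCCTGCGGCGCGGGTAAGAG
Col8a2: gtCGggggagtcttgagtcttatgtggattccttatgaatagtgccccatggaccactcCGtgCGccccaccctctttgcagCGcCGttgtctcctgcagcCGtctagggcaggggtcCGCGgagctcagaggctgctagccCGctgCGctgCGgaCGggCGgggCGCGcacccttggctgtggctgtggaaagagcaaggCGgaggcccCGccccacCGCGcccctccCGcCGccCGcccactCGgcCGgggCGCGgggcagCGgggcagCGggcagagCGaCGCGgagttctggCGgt
Col3a1: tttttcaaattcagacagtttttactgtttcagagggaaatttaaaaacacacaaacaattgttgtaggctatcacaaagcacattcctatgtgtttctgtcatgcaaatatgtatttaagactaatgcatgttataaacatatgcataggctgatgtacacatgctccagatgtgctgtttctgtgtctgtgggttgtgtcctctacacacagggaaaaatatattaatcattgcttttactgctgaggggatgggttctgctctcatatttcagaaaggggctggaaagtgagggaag
Col5a1: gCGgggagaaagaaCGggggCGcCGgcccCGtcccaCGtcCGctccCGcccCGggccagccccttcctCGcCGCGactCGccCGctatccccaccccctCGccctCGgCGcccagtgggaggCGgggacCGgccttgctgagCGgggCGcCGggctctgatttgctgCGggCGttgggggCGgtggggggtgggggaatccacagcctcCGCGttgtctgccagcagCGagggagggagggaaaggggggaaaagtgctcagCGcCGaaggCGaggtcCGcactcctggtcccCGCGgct

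The CpG content of these windows went with signal only loosely. The Col8a2 window holds 32 CpGs and that of Col4a1 37, Col3a1 has none, and Col5a1, with 34, lay between the 5.39 and 44.4 percentile in the 5 sections that held it. Over the collagen genes with a window (n = 21 to 34 by section), Spearman's rho between reads and CpGs lay between 0.24 and 0.38, and over all genes with a window between 0.14 and 0.26. The median window of a collagen gene held by the control paw had 12.5 CpGs, and the median over all such genes there was 17. Reads and annotated gene length were all but unrelated over the collagen genes, with rho between -0.16 and 0.00, against 0.14 to 0.19 over all genes. Points of 1 section share a library and its depth, and these values are descriptions.

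Within each section the collagen genes spanned almost the whole range of signal. Ranked by reads among all genes of its section, where 50 is the median gene, the median collagen gene lay at the 58.9 percentile in the arthritic paw, 51.9 in the brain and 61.8 in the control paw. The embryo sections with H3K27ac, H3K4me3 and H3K27me3 gave 55.2, 62.9 and 55.5. These lists differ in length, so a percentile is comparable between sections only where it is said to rest on shared genes. Together the collagen genes took 0.298% of reads in the arthritic paw, where they made up 0.252% of the genes, and 0.249% of reads with 0.222% of genes in the control paw. In the embryo they took 0.196%, 0.205% and 0.216% of reads under H3K27ac, H3K4me3 and H3K27me3 and were 0.222%, 0.232% and 0.226% of the genes, and the brain gave 0.290% of reads with 0.256% of genes. As a set they therefore stood close to their share of genes in all 6 sections. In the top 10% of all genes lay 3 of 28 collagen genes in the arthritic paw, 9 of 43 in the control paw, 5 of 42, 6 of 42 and 6 of 43 in the embryo H3K27ac, H3K4me3 and H3K27me3 sections, and 6 of 29 in the brain.

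**Figure D1:**
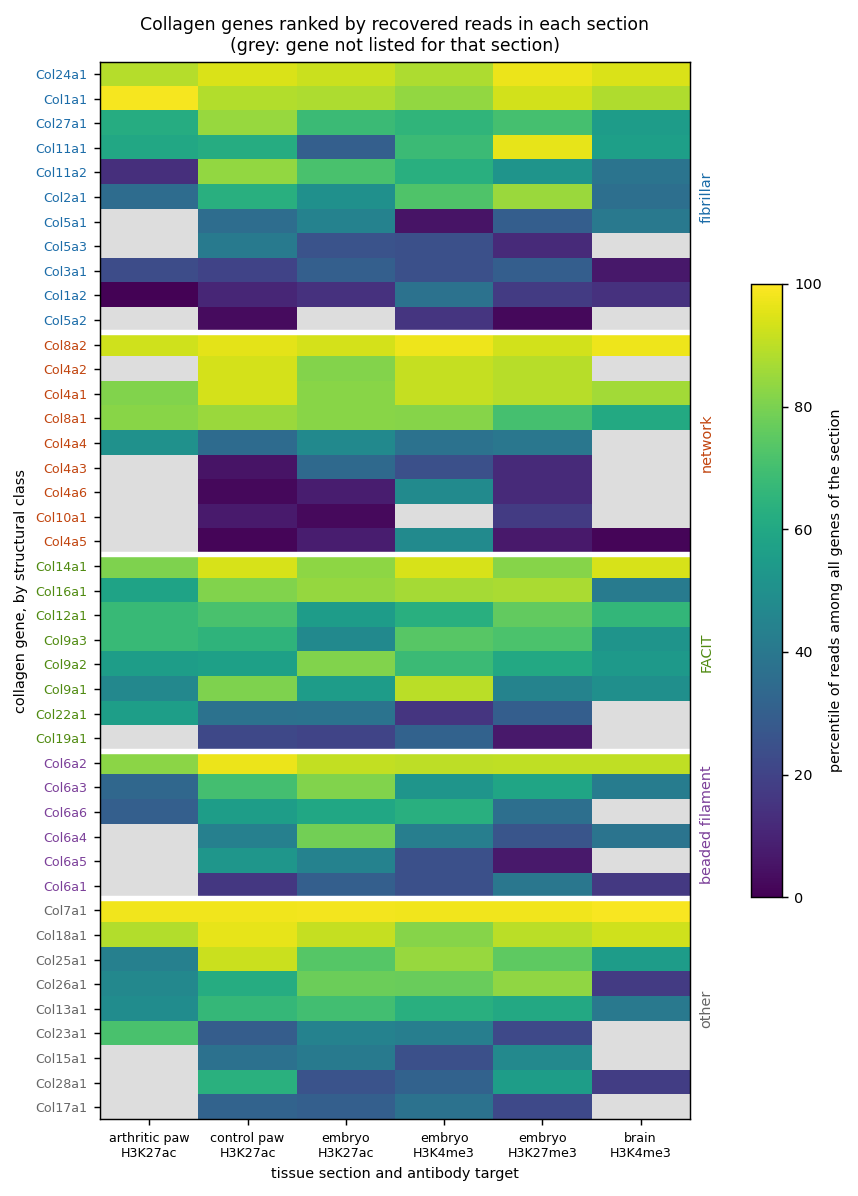
Percentile of each collagen gene (rows, grouped by structural class) among all genes of each of the 6 sections (columns), by recovered reads, with grey where the section's table does not hold the gene. Col7a1 and Col8a2 are bright in all 6 columns and Col1a2 and Col3a1 dark in all 6, while Col11a1 is bright in the embryo H3K27me3 column alone, at 96.3.

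The same genes tended to lead in every tissue and under every mark. Col7a1, the collagen that anchors the epidermis to the dermis, held between 97.7 and 99.1 in all 6 sections. It had 2433 reads in the arthritic paw, 1619 in the control paw, 203, 141 and 246 in the embryo H3K27ac, H3K4me3 and H3K27me3 sections, and 1092 in the brain, which is between 5.07 and 7.01 times the section's mean gene. In the brain its count is a lower bound, as over 10% of it lies in spots where counts could not be read exactly. Col8a2 lay between 92.8 and 97.6, Col24a1, a fibrillar collagen of developing bone and cornea, between 87.7 and 97.0, Col6a2 between 82.7 and 97.1, and Col1a1 between 83.8 and 98.5. Ranked among the 9471 genes held by all 6 sections, 5 of the 24 collagen genes on that list stayed above the 75 percentile throughout. These were Col7a1 (96.5 to 98.9), Col8a2 (89.4 to 97.0), Col6a2 (81.3 to 95.5), Col24a1 (81.1 to 95.8) and Col1a1 (75.1 to 98.4). On the same list 2 genes, Col1a2 and Col3a1, stayed below 50, and the median collagen gene moved over 27.4 percentile points. The shares of all 9471 genes that stayed above 75 or below 50 are not given. These counts are therefore not read as particular to collagen genes. The levels of collagen genes correlated between sections with Spearman's rho between 0.63 and 0.90 (n = 24 to 43 genes), against 0.61 to 0.76 over all genes, and H3K27me3 and H3K27ac in the embryo, marks of opposite meaning, gave 0.79.

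Collagen genes are long, so their ranks depend on whether reads are taken per gene or per kilobase. Reads rose only weakly with length over all genes, so dividing by length by itself lowers long genes. The median collagen gene spans 114 kb in RefSeq, and the median gene of the control paw 19.8 kb. Per kilobase of gene the median collagen gene fell to a percentile of between 18.4 and 23.6 by section, and 3 of the 24 genes held by all sections stayed above 75 in each section's own list. These were Col7a1, at 87.6 to 92.4, Col8a2, at 78.3 to 92.4, and Col1a1, at 78.3 to 95.1. Col4a1 lay between 26.9 and 47.6 on that scale. The share of all genes that stayed above 75 per kilobase is not given. The window over which reads were counted per gene is not stated in the labels, so both scales are shown.

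Among the fibrillar collagens the chains of a single protein stood far apart. Type I collagen, the main protein of bone and tendon, is built from the chains of Col1a1 and Col1a2. Col1a1 had 2897 reads in the arthritic and 502 in the control paw, 46, 24 and 95 in the embryo (H3K27ac, H3K4me3, H3K27me3) and 299 in the brain. Col1a2 had 42, 46, 3, 5, 4 and 57 in the same order, and among the genes held by all 6 sections it ran from the 0.21 percentile in the arthritic paw to 14.5 in the embryo H3K4me3 section. Col1a1 exceeded Col1a2 in all 6 sections, at 98.5 against 0.41 in the arthritic paw. The V collagens were low as well. Col5a2, the partner chain of Col5a1, had 30 reads in the control paw (percentile 3.04) and 2 and 1 in the embryo under H3K4me3 and H3K27me3. Col3a1 had 154 and 64 reads in the arthritic and control paw, 6, 3 and 7 in the embryo and 44 in the brain, and never passed the 30.2 percentile.

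The cartilage collagens held no common place. Col2a1 had 204 reads in the arthritic paw, 197 in the control paw, 12, 15 and 51 in the embryo under H3K27ac, H3K4me3 and H3K27me3, and 92 in the brain. It lay at the 35.5 and 46.9 percentile among the genes held by both paws, and among the genes held by all 6 sections it was lowest in the embryo H3K27ac section and highest, at 75.5, in the H3K27me3 section. Col11a1 and Col11a2, whose chains join type II fibrils, moved apart from each other. Among the genes held by all 6 sections, Col11a1 ran from the 6.55 percentile in the embryo H3K27ac section to 94.5 under H3K27me3. Among those held by both paws, Col11a2 lay at 13.6 in the arthritic and 76.2 in the control paw. Col9a1, Col9a2 and Col9a3, the FACIT chains on cartilage fibrils, had 340, 170 and 210 reads in the control paw, and 256, 309 and 406 in the arthritic paw. Col10a1, the network collagen of hypertrophic cartilage, had 39 reads in the control paw (percentile 7.12), and the embryo had 1 for H3K27ac and 4 for H3K27me3.

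The network class split into a high and a low group. Col8a2, Col8a1, Col4a1 and Col4a2 stayed above the 60 percentile in every section that held them, and Col4a1 had 766 reads in the control paw, 610 in the arthritic paw and 274 in the brain. Col4a3, Col4a5, Col4a6 and Col10a1 lay below 50 wherever they were held. Col4a3 and Col4a5 encode chains of the glomerular basement membrane. They had 35 and 25 reads in the control paw, at the 5.16 and 1.40 percentile. Of collagen VI, Col6a2 had 1358 reads in the control paw and Col6a1, whose chain joins the same protein and whose gene lies beside it, 56.

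The head-to-head pair Col4a1 and Col4a2 had the same signal wherever both were held. Their counts were 766 and 769 in the control paw, 35 and 34 under H3K27ac, 39 and 39 under H3K4me3, and 67 and 67 under H3K27me3, the last 3 in the embryo. The match held spot by spot. In the control paw the counts were equal in 358 of the 361 spots with a read of either gene (99.2%, exact binomial interval 97.6 to 99.8), and in the embryo in 31 of 32, 37 of 37 and 57 of 57 spots. Whether the same reads were counted to both genes was not tested, and their separate levels are uncertain. The arthritic paw and the brain held Col4a1 and not Col4a2, although Col4a2 stood at the 93.5 percentile in the control paw. Col4a5 and Col4a6, which face each other on the X chromosome with starts 1343 bases apart, had 25 and 28 reads in the control paw and were equal in 23 of 30 spots with either. They had 2 and 2, 7 and 7, and 2 and 3 reads in the 3 embryo sections. Col4a3 and Col4a4, the other head-to-head pair, were not alike, with 35 and 97 reads in the control paw and equal counts in 29 of 86 spots. Of the 24 collagen genes with another listed gene within 10 kb, 3 had a neighbour within 5% of their count at 20 or more reads in some section. These were Col4a1 and Col4a2 themselves and Col17a1, with 89 reads in the control paw. The share of all genes with such a neighbour is not given, so the count of 3 is not read against a background.

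**Figure D2:**
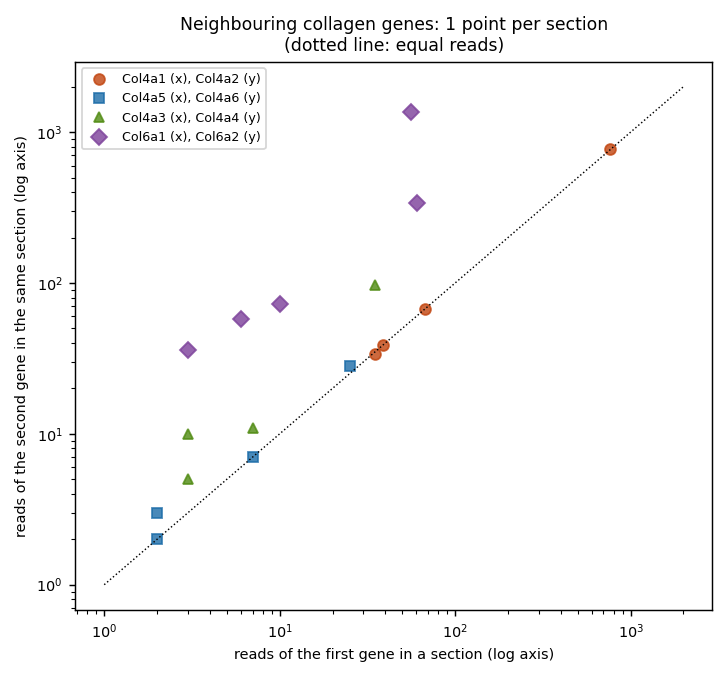
Reads of neighbouring collagen genes in each section that held both, both axes logarithmic, with a dotted line where the counts are equal. The Col4a1 and Col4a2 points lie on the line from 35 and 34 to 766 and 769 reads, whereas Col6a2 lies above Col6a1 in all 5 sections, by 1358 to 56 reads in the control paw.

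In the paws, H3K27ac at most collagen genes stayed within 2-fold between the arthritic and the control section, and Col1a1 differed most. The ratio compares each gene's reads relative to the mean of the 11130 genes held by both paws, on the log2 scale after adding 0.1 to both relative levels, which understates changes of low genes. A gene was counted as higher or lower past 2-fold. The median collagen gene had a log2 ratio of -0.09, and the median over all genes was 0.11. The lower and upper limits of the 28 single-gene intervals, taken without the added 0.1, had medians of -0.29 and 0.23. These describe a typical gene and are not an interval of the median. Past 2-fold lay 3 of the 28 collagen genes higher and 3 lower, while 11.6% of all genes were higher, 7.88% lower and 19.5% either way. The collagen share of 6 in 28, 21.4%, is near that background.

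Col1a1 had 2897 reads (2792 to 3004) in the arthritic and 502 (459 to 548) in the control paw, 6.03 and 1.24 times the mean gene. Its log2 ratio was 2.19, a 4.58-fold difference, and 2.28 (2.15 to 2.42) without the added 0.1. The 2 other genes past 2-fold higher were Col23a1, a transmembrane collagen, with 446 against 83 reads (log2 ratio 1.75), and Col22a1, a FACIT collagen of tissue junctions such as that of muscle and tendon, with 312 against 104 (1.07). Col4a4, with 278 against 97 reads, lay just below the threshold, at 1.999-fold. On the lower side were Col11a2, with 120 against 392 reads (-1.61), Col25a1, a transmembrane collagen of neurons, with 241 against 657 (-1.52), and Col6a2, with 656 against 1358 (-1.24). Leaving out genes under the median signal removed Col22a1 and Col11a2 from the comparison, and a pseudocount of 1 left Col1a1 alone past 2-fold. With the deposited values Col22a1 (0.93) and Col6a2 (-0.84) no longer passed, and with even array columns Col22a1 (0.96) did not. Read against the all-gene median, Col22a1 (0.96) was again the gene that did not pass.

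Reads of the 3 lower genes, like those of several other collagen genes, were uneven over the control array. In array columns 1, 5, 9, 13, 17 and 21 of the control section, Col11a2, Col25a1 and Col6a2 held 0.43, 0.47 and 0.59 of the share that the section as a whole had there. Without those columns their ratios were -1.71, -1.51 and -1.34, as large as with them for Col11a2 and Col6a2 and within 0.01 for Col25a1. Even and odd array columns gave Col1a1 2.14 and 2.27. In the same columns of the control section Col6a5 held 3.44, Col8a2 1.82 and Col6a6 0.57 of the section's share. Col1a1, at 0.99, and Col7a1, at 1.04, lay near it.

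**Figure D3:**
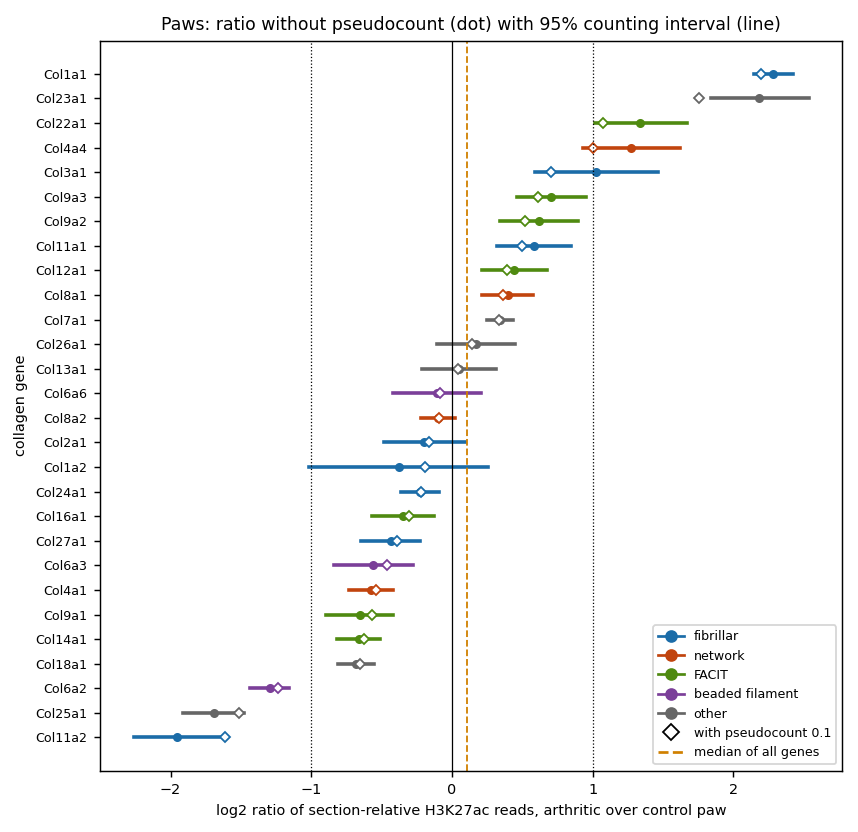
Log2 ratio of H3K27ac reads, arthritic over control paw, for the 28 collagen genes held by both sections, with colours for structural class. Dots and lines give the ratio without pseudocount and its 95% counting interval, open diamonds the ratio with 0.1 added, dotted lines the 2-fold threshold and the dashed line the all-gene median of 0.11. Col1a1 stands at the top at 2.19 and Col11a2 at the bottom at -1.61.

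By class, the 8 fibrillar genes had a median log2 ratio of -0.17, the 4 network genes 0.14, the 7 FACIT genes 0.39, the 3 collagen VI genes -0.46 and the 6 remaining genes 0.09. Each class spanned both sides of the all-gene median except collagen VI, whose 3 genes lay below it. Col2a1, the gene of the immunising protein, was nearly level, with 204 and 197 reads and a ratio of -0.16 (interval without pseudocount -0.49 to 0.09). Col1a2 had a ratio of -0.19 and Col3a1 of 0.70. Of the cartilage FACIT chains, Col9a2 (0.52) and Col9a3 (0.61) were above and Col9a1 (-0.57) below the all-gene median. Col12a1 of tendon had 0.39, Col4a1 -0.54, Col14a1 -0.62, Col18a1 -0.66 and Col7a1 0.33. The 28 genes together took 0.298% of the reads on shared genes in the arthritic paw (0.293 to 0.302) and 0.288% in the control paw (0.283 to 0.293). Without Col1a1 the shares were 0.243% (0.239 to 0.248) and 0.277% (0.272 to 0.282), so the order of the paws turned on that gene.

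The 15 collagen genes held by the control paw and not by the arthritic paw were mostly low there. Their median percentile in the control paw was 31.9 (1.40 to 93.5), against 75.9 for the 28 held by both, and over all genes the corresponding medians were 26.6 and 65.3. They include Col5a1, Col5a2, Col5a3, Col6a1, Col10a1, Col15a1 and Col17a1, the hemidesmosomal collagen of the epidermis. Nothing can be said of their signal in the arthritic paw.

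Apart from the array columns named above, most collagen genes had reads in about as many spots as depth alone would give. The exceptions, Col7a1 among them, are given below. In the arthritic paw Col1a1 had reads in 851 of 943 spots (90.2%), and 90.3% would have them if its reads were spread over spots in proportion to depth alone. It had 0 reads in 92 spots, 1 or 2 in 369, 3 to 5 in 334 and 6 or more in 148, with a maximum of 12. In the control paw it had reads in 293 of 554 spots (52.9%) and at most 7. Moran's I, which is near 0 when neighbouring spots resemble each other no more than distant ones, was 0.013 for the summed collagen share in the arthritic paw and -0.039 in the control paw. It was -0.019 in the brain, and the embryo gave -0.016 for H3K27ac, -0.006 for H3K4me3 and -0.034 for H3K27me3. The upper 5% of single genes began between 0.027 and 0.078, above the collagen sum in every section. Reads per spot, by contrast, had an I of 0.521 in the arthritic and 0.387 in the control paw.

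Col7a1 was spread less evenly than depth alone would give. It had reads in 77.6% of spots of the arthritic paw (74.8 to 80.2), where proportional spread gives 86.9%, in 76.4% of the control paw against 85.9%, and in 39.5% of the brain against 50.9%. Its reads came in batches of up to 16, 19 and 12 in a spot. Col16a1, a FACIT collagen, did the same in the paws, with reads in 23.3% against 28.3% and 34.5% against 43.5% of spots. In fewer spots than the interval of proportional spread allows lay 3 of 28 collagen genes in the arthritic paw, where 2.70% of all genes did, 4 of 43 in the control paw (3.78%), 1 of 29 in the brain (1.08%) and 0 in the embryo under H3K27ac (0.190%), H3K4me3 (0.177%) and H3K27me3 (0.273%), where counts were small. In more spots lay 1 collagen gene, Col6a2 in the arthritic paw, at 51.3% against 47.6%, as did 0.0180% of all genes there.

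**Figure D4:**
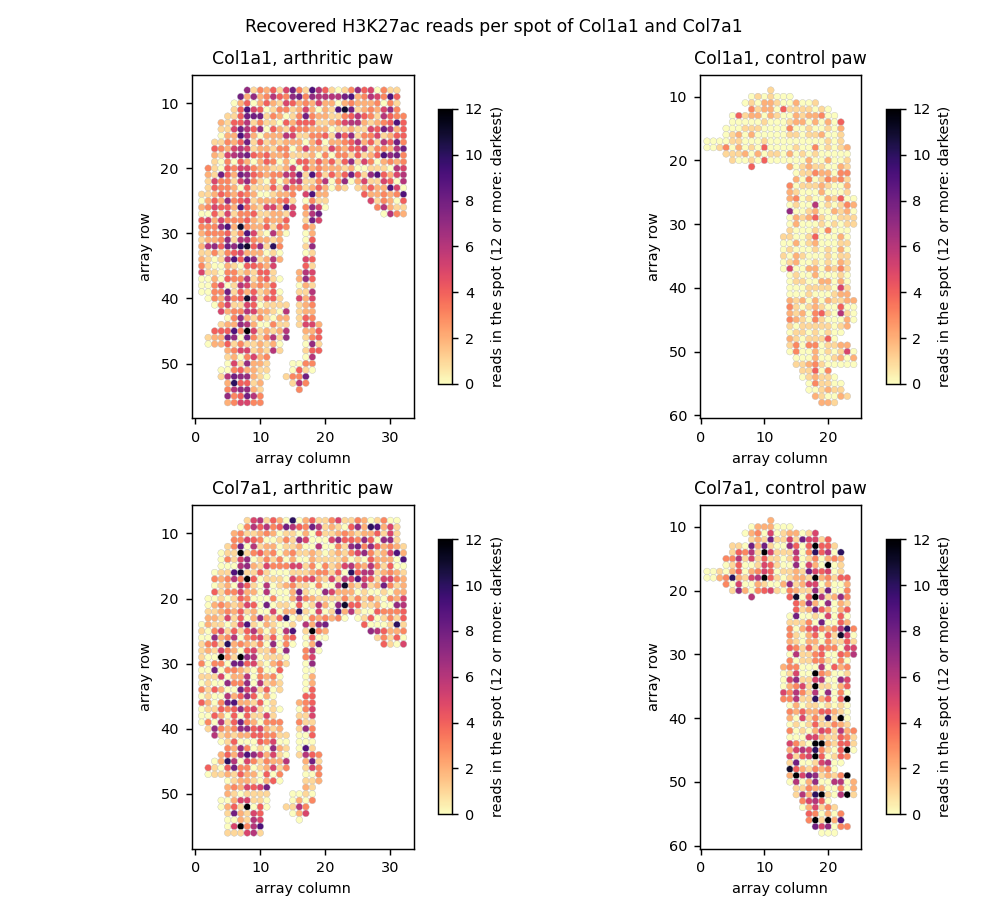
Recovered H3K27ac reads of Col1a1 (top) and Col7a1 (bottom) in each spot of the arthritic paw (left, 943 spots) and the control paw (right, 554 spots), by array column and row, on a colour scale from 0 to 12 or more. Col1a1 reads cover the arthritic section, with a mean of 3.07 per spot against 0.91 in the control, and Col7a1 shows single dark spots, up to 16 and 19 reads, beside spots with 0.

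Among genes that process collagen, 18 of the 25 held by both paws lay above the all-gene median ratio, and of the collagen receptors 2 of 6. The 25 come from a list of 41 genes for the modification, cleavage and cross-linking of collagen and for its small proteoglycans. They had a median log2 ratio of 0.49 (all genes 0.11), 3 higher and 4 lower past 2-fold. Of all genes held by both paws, 11.6% were higher and 7.88% lower. The higher genes were Pcolce, which enhances procollagen cleavage, with 1571 against 305 reads (1.98), the prolyl hydroxylase P3h2 with 345 against 77 (1.50), and the procollagen protease Adamts3 with 622 against 223 (1.10). The lower ones were Colgalt2, which adds sugar to collagen lysines, with 202 reads against at least 5767 (-4.78), the prolyl hydroxylase P3h3 (-1.70), the matrix protein Sparc (-1.34) and the proteoglycan Bgn (-1.22). None of the 6 collagen receptors held by both, of 11 listed, lay past 2-fold, and their median was -0.03. Serpinh1, the collagen chaperone, was at 0.34 and the cross-linking oxidase Lox at 0.89.

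Among the collagen genes of the embryo, Col11a1 differed most between the marks. Col11a1 had 156 reads under H3K27me3 (132 to 182), 13 under H3K4me3 (6.92 to 22.2) and 6 under H3K27ac (2.20 to 13.1), which is 3.96, 0.58 and 0.21 times the mean gene of each section. Its reads under H3K27me3 lay in 41.7% of spots, against 5.24% and 2.39% under H3K4me3 and H3K27ac. Its promoter (RefSeq, GRCm38.p6, chr3:114030290-114030589, plus strand) is printed because it belongs to the collagen gene with the largest difference between marks. Capitals mark its 9 CpGs.
Col11a1: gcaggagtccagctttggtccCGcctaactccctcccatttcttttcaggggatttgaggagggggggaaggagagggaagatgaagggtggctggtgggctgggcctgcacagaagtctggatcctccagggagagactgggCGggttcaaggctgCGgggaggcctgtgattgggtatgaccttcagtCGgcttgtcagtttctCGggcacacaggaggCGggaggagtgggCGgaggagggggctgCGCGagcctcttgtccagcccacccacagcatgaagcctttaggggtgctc

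H3K27me3 relative to H3K27ac, over the 18653 genes held by both embryo sections, centred on a log2 ratio of -0.15 in the 42 collagen genes and -0.12 overall. Higher past 2-fold were 3 collagen genes and lower were 4, against 10.4% and 14.1% of all genes. Both collagen shares were below that background. All 3 higher genes were fibrillar, of 10 fibrillar genes compared. Col11a1 had a ratio of 3.71 (interval without pseudocount 3.10 to 5.72), Col2a1, with 51 against 12 reads, 1.43 (0.71 to 2.68), and Col24a1, with 188 against 64, 1.07 (0.69 to 1.54). Of the 4 lower genes, 3 belonged to collagen VI. Col6a4 had 6 against 30 reads (-2.17), Col6a5 2 against 10 (-1.56) and Col6a3 19 against 33 (-1.09), and the fourth, Col9a2, 20 against 33 (-1.03). Col6a6 (-0.99) lay just outside the threshold, and Col6a1 (0.20) and Col6a2 (-0.11) near the all-gene median. Col28a1 (0.95), Col9a3 (0.79) and Col23a1 (-0.97) rest on 5 to 29 reads a section and their intervals span 0. The 10 fibrillar genes had a median of -0.02 and the 6 of collagen VI of -1.04. Leaving out genes under the median signal removed Col6a5 from the comparison. Several calls lay near the threshold. Col24a1 did not pass with the deposited values (0.63), equal weight for every spot (0.86) or odd array columns (0.95). Col9a2 did not with the deposited values (-0.98), equal weights (-0.82) or even columns (-0.61), and Col6a3 did not with odd columns (-0.92) or, narrowly, with the deposited values. Read against the all-gene median, 4 were higher, with Col28a1 (1.07) added, and 2 lower, without Col6a3 (-0.98) and Col9a2 (-0.92), where 12.3% of all genes were higher and 11.6% lower.

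Against H3K4me3 the order of H3K27me3 signal was similar for the fibrillar genes. Each 2 of the 3 embryo comparisons share a section, so they are not independent. Of 42 collagen genes, 3 were higher past 2-fold and 5 lower, where 15.1% of the 17837 genes were higher and 10.4% lower. The higher share was below that background and the lower near it. The medians were -0.08 for collagens and 0.08 over all genes. Taking deposited values in place of recovered reads, 7 were higher and 4 lower, with no all-gene share given for that setting. The higher genes were Col11a1 (2.51, 156 against 13 reads), Col24a1 (1.70, 188 against 30) and Col1a1 (1.04, 95 against 24). The lower genes were Col9a1 (-2.08, 12 against 35), Col4a5 (-1.47, 2 against 7), Col4a6 (-1.25, 3 against 7), Col8a2 (-1.20, 97 against 124) and Col14a1, a FACIT collagen of skin and tendon (-1.08, 44 against 53). As Col4a5 and Col4a6 have nearly the same reads, they count as little more than 1 observation. The interval of Col4a6 without pseudocount, -4.68 to 0.03, spans 0. Leaving out genes under the median signal removed Col4a5 and Col4a6 from the comparison. Col5a1 (0.90, 7 against 1 reads), Col28a1 (0.88), Col15a1 (0.83) and Col19a1 (-0.90) did not pass the threshold. The deposited values ended the calls of Col14a1 (-0.26), Col4a5 (-0.46) and Col4a6 (-0.51), odd array columns that of Col9a1 (-0.88), even columns those of Col14a1 (-0.53), Col1a1 (0.90) and Col4a6 (-0.61), and equal weights that of Col14a1 (-0.97). Read against the all-gene median Col1a1 (0.96) did not pass.

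H3K27ac relative to H3K4me3 had its median at 0.22 among 41 collagen genes and at 0.20 overall. Past 2-fold higher were 3 collagen genes and lower 5, against 17.8% and 9.17% of 17762 genes. The higher share was below that background and the lower a little above it. With the deposited values 8 were higher and 5 lower, again with no all-gene share given. Higher were Col6a4 (1.57, 30 against 6 reads), Col5a1 (1.57, 10 against 1) and Col6a3 (1.38, 33 against 8). Lower were Col9a1 (-1.56, 14 against 35), Col4a5 and Col4a6 (both -1.30, 2 against 7 each), Col11a1 (-1.18, 6 against 13) and Col8a2 (-1.12, 75 against 124). Col22a1 (0.94), Col18a1 (0.93), Col6a5 (0.88) and Col14a1 (-0.93) lay inside the threshold. For Col4a5 and Col4a6 the sign depends on the measure, with 0.13 and 0.052 from the deposited values. Their intervals without pseudocount, -5.54 to 0.16 for each, span 0. Leaving out genes under the median signal removed Col4a5, Col4a6, Col11a1 and Col5a1 from the comparison. Even and odd array columns gave Col11a1 ratios of -1.93 and -0.47 here, and Col9a1 -2.42 and -0.40, on different sides of the 2-fold threshold. Col11a1 did not pass with the deposited values either (-0.56), and Col8a2 did not with odd columns (-0.94). With even columns Col6a3 (0.96), Col5a1 (0.87) and Col4a5 and Col4a6 (both -0.83) did not pass, and with equal weights the latter pair had -0.61 each. Read against the all-gene median all 8 passed, and Col14a1 and Col9a3 did as well on the lower side.

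**Figure D5:**
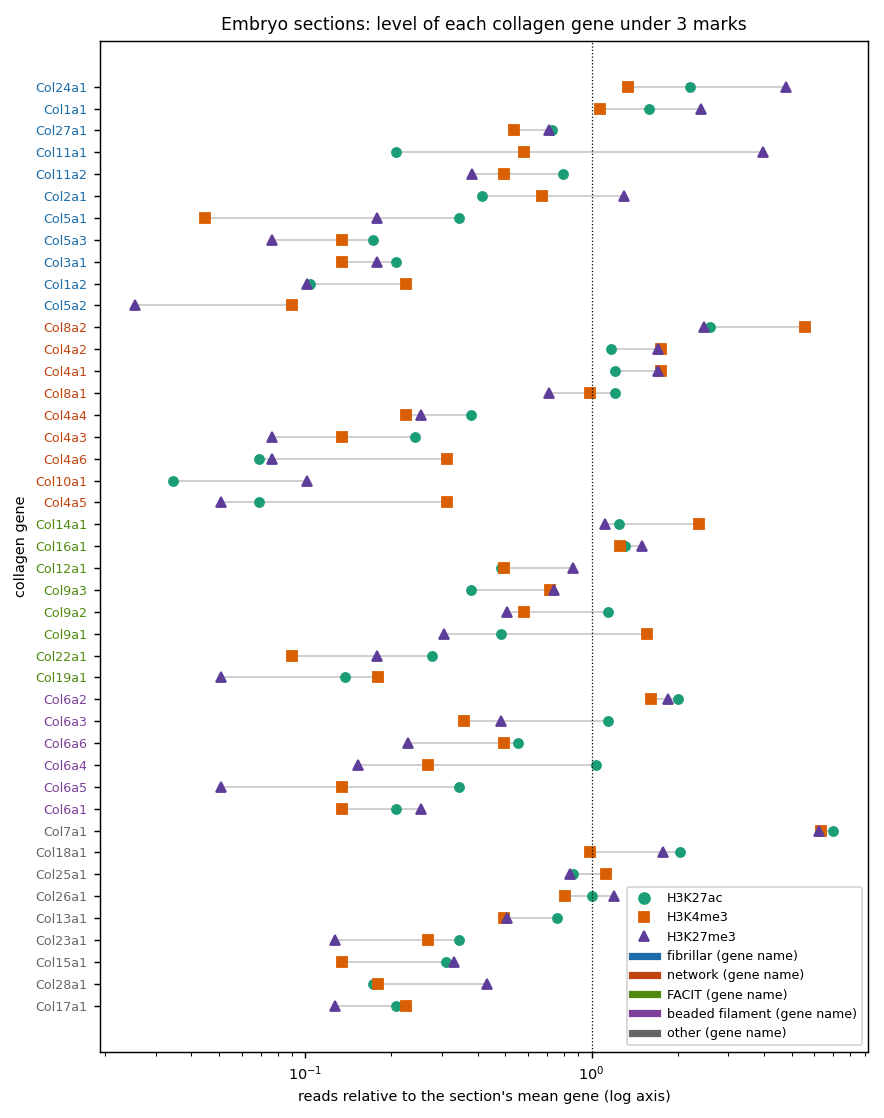
Reads of each collagen gene relative to the mean gene of its section (log axis) in the embryo under H3K27ac (circles), H3K4me3 (squares) and H3K27me3 (triangles), with gene names coloured by structural class. The H3K27me3 triangles of Col11a1 at 3.96 and Col24a1 at 4.78 lie to the right of the other marks, and the H3K4me3 squares of Col8a2 at 5.55 and Col9a1 at 1.57 do so for H3K4me3.

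H3K4me3 in the brain against the embryo, which differ in age, tissue, section thickness and depth at once, was compared over the 29 collagen genes and 11127 genes held by both. The median log2 ratio was 0.66 for all genes together and 0.48 for the collagen genes, and the calls below are first given against 0. Past 2-fold higher were 5 collagen genes and lower 0, where 31.4% of all genes were higher, 5.72% lower and 37.1% either way. The collagen share of 17.2% was below that background. Read against the all-gene median, 1 collagen gene was higher, Col5a1, and 5 were lower, Col9a1, Col26a1, Col16a1, Col8a2 and Col4a5, where 7.23% of all genes were higher and 11.7% lower. With the deposited values 7 were higher and 2 lower, and with every spot weighed equally 4 and 1. The all-gene shares at these 2 settings are not given. The 5 higher genes were Col5a1 (2.25, 100 reads in the brain against 1 in the embryo), Col18a1 (1.29, 379 against 22), Col6a1 (1.06, 61 against 3), Col24a1 (1.06, 430 against 30) and Col12a1 (1.01, 164 against 11). Of these, Col5a1 alone remained past 2-fold against the all-gene median. Its ratio rests on 1 read in the embryo, with an interval without pseudocount of 1.42 to 9.25. Leaving out genes under the median signal removed Col5a1 and Col6a1 from the comparison, and a pseudocount of 1 ended all 5 calls. For Col12a1 the deposited values gave -1.33. It did not pass with equal weights (0.29) or odd columns (0.59) either, Col6a1 did not with equal weights (0.94) or odd columns (0.53), and Col24a1 did not with even columns (0.99). Col6a4, with 96 against 6, was at 0.99. The lowest were Col9a1 (-0.84, 120 against 35), Col26a1 (-0.77, 62 against 18), Col16a1 (-0.75, 102 against 28), Col8a2 (-0.43, 602 against 124) and Col4a5 (-0.41, 30 against 7). Within the brain the collagen genes with most reads were Col7a1 (at least 1092), Col8a2 (602) and Col24a1 (430), and those with fewest were Col4a5 (30), Col3a1 (44) and Col1a2 (57).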

How the data were processed

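The deposited tables give 1 quantile-normalised signal per gene and array spot for each of 6 sections. Per the submitters' processing notes the tools were Bowtie2, featureCounts and MACS2 and the builds hg19 and mm9, and the sources used here do not state their versions, the role of each build or the window counted per gene. In each spot, equal counts take consecutive ranks in a fixed gene order, so every fall in that order marks 1 further read. Counts were recovered that way up to the last count held by at least 5 genes in a spot, which gave 92.9% to 95.4% of the list total, where that list is the one set of values that quantile normalisation gives to every spot. In each section its values were whole multiples, within 0.001, of its lowest value, or in the embryo H3K27me3 section of that value divided by 4. A gene with over 10% of its reads beyond that point is a lower bound. Rank by rank, recovered counts summed over spots equalled the list value at 98.8% of ranks in the control and 99.1% in the arthritic paw. In the brain they did so at 37.4%, and in the embryo H3K27ac, H3K4me3 and H3K27me3 sections at 50.8%, 51.2% and 51.6%. The match was thus much poorer outside the paws.

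Reads were summed per gene and section and ranked among all genes of the section. Ratios between sections used levels relative to the mean of the genes held by both, a pseudocount of 0.1 and a threshold of 2-fold. Intervals are exact Poisson or Clopper-Pearson limits at 95% and cover counting error only. Reads are not known to be independent molecules. No test between groups was run, as each group is 1 section.

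The members, classes and lists were chosen with earlier results of these data known. The genes named were the 5 highest and 5 lowest ratios of each comparison, the 3 genes with most and fewest reads in a section, a fixed set of well-known collagens, and the 3 highest and lowest processing genes in the paws. Recovery and ratios were tested on simulated paw sections only, and no embryo or brain section was simulated. Python 3.11.15, numpy 2.4.6, pandas 2.3.3, scipy 1.17.1 and matplotlib 3.10.9 were used.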

Additional observations from a re-analysis of the deposited data

How the results depend on the processing

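No paired analysis was possible because each group is 1 section with no replicate number to pair. The alternatives were the deposited values, an estimate for reads beyond the exact zone, a pseudocount of 1, genes below the median signal left out, every spot weighed equally, odd or even array columns, and leaving out array columns 1, 5, 9, 13, 17 and 21. Ranks per kilobase and ratios centred on the all-gene median were added after seeing the data. Under all of them the median log2 ratios stayed between the medians of the single-gene interval limits. That range is as wide as a typical single gene's, as with -1.54 to 0.91 in H3K27me3 over H3K27ac. A median over many genes could hardly leave it, so this shows little about robustness. Signs of the medians did not all hold, as in H3K27me3 over H3K4me3 with 0.21 from the deposited values. With a pseudocount of 1 the collagen genes past 2-fold numbered 1 in the paws, 1 in H3K27me3 over H3K27ac, 2 in H3K27me3 over H3K4me3, 0 in H3K27ac over H3K4me3 and 0 in brain over embryo, since a larger pseudocount shrinks every ratio. With low genes left out, fewer genes were compared, and 4 remained in H3K27ac over H3K4me3 and 3 in brain over embryo. Odd columns gave 13 in H3K27me3 over H3K27ac and 13 in H3K27ac over H3K4me3, from fewer spots. The deposited values gave 13 in H3K27ac over H3K4me3 and 9 in brain over embryo, and turned Col4a5 (0.13) and Col4a6 (0.052) in H3K27ac over H3K4me3 and Col12a1 (-1.33) in brain over embryo. The cause was not tested. They put the median collagen percentile at 53.8 in the arthritic and 55.2 in the control paw. Per kilobase it was 18.4 and 19.0 in these, 22.2, 22.6 and 23.6 in the embryo H3K27ac, H3K4me3 and H3K27me3 sections and 18.8 in the brain. Centring left the counts within 1.5 times those against 0 but changed which genes passed, most of all in brain over embryo, where 1 of the 5 calls remained. Except where an all-gene share stands beside them, counts at alternative settings are not read against a background. A rise or fall of such a count is therefore not a result about collagen genes in particular. The embryo sections had 7 to 14 reads for the median gene.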
